A study of Mus musculus with 3 samples.

Results

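Monocyte-like cells were a small population within the brain cells sorted as microglia, 57 of 14070 kept cells. They were chosen by their own UMIs (unique molecular identifiers, each a captured RNA molecule): at least 5 UMIs in sum of the monocyte genes Plac8, Ly6c2, S100a4, Ccr2, Ace and Ear2, under 0.15% of UMIs from the microglial genes P2ry12 and Tmem119, and under 5 UMIs of the macrophage genes Mrc1, Pf4, Ms4a7 and F13a1. Levels of these 12 genes are therefore given as a description. Of the 57 cells, 44 held UMIs of the monocyte genes besides Ccr2 and S100a4, and 13 held Ccr2 without Plac8, Ly6c2, Ace or Ear2. The transcriptomes of those 13 went against the name, as described later, and they are called Ccr2-only cells.

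The study asked how isoforms of human CD33, an inhibitory sialic acid receptor of myeloid cells, alter microglia. For each genotype 1 library was made on the 10x Chromium 3' platform from brains of mice aged 8 weeks, all of them in experiment 2. The hCD33m library came from female mice with a transgene for the short isoform, which lacks the sialic acid binding domain. The hCD33M library came from male mice with a transgene for the long isoform, and the Control library came from male wild-type mice. Both transgenes were cDNAs in the Rosa26 locus behind a floxed stop, expressed after recombination by Cre recombinase from the Cx3cr1 locus, on a C57BL/6 J background. That Cre is active in microglia and also in monocytes, since both express Cx3cr1, and the labels do not say whether the wild-type mice carried it. Sex and the hCD33m transgene cannot be told apart, the methods pool mice within a genotype, and no spread between animals can be had. For this reason no test between genotypes was made, and every interval below covers counting error only. Sorting kept cells that were CD11b+, CD45low and Cx3cr1+, a gate set for microglia, and transcription and translation inhibitors were used during isolation.

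Monocytes are made in bone marrow and circulate in blood. Classical, Ly6c-high monocytes carry the chemokine receptor Ccr2 and enter tissue, where they can become macrophages or dendritic cells. Patrolling, Ly6c-low monocytes depend on the nuclear receptor Nr4a1, carry more Cx3cr1, and crawl along the inside of blood vessels, with Ace, Treml4 and Spn (CD43) among their markers. In the healthy brain the parenchyma is held by microglia, border-associated macrophages (BAM) sit in the meninges and around vessels, and monocytes are found mainly in the vessels and at the borders.

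The promoters of Ly6c2 and Ear2 are shown because these genes mark the opposite ends of the population described below. Ly6c2 encodes a surface protein of classical monocytes and Ear2 a secreted ribonuclease that is high in patrolling monocytes. Each stretch runs from 250 bases before the gene's start to 50 after it (RefSeq, GRCm38.p6, which is mm10), at chr15:75111922-75112221 on the minus strand for Ly6c2 and chr14:44102404-44102703 on the plus strand for Ear2. Capitals mark the core of the PU.1 element (GAGGAAGT) in Ly6c2, and in Ear2 a C/EBP half-site pair (TTGCNNAA) and a KLF box (CCACCC).
Ly6c2: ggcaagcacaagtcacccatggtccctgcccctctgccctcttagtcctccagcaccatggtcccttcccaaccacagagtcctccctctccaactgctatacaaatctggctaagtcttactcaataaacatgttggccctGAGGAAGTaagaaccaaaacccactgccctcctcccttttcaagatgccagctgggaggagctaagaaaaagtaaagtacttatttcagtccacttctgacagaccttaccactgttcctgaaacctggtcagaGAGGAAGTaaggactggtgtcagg
Ear2: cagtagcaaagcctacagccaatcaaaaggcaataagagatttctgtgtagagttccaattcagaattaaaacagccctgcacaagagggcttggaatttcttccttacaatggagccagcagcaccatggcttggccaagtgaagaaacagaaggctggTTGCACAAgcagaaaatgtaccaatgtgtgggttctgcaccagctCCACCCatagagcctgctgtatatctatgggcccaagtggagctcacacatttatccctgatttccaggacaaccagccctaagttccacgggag
Ly6c2 held 2 matches of the PU.1 core, and Ear2 held 1 match each of the C/EBP and KLF letters, both on the strand shown. On both strands together, the PU.1 core was found in 3.20% of the 32851 promoters in the RefSeq table, the C/EBP letters in 10.8% and the KLF box in 31.5%. The NR4A element AAAGGTCA, held by 1.51% of promoters, was in neither sequence. A match describes letters and not a bound site.

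The 3 libraries held 5707 (hCD33m), 5100 (hCD33M) and 3482 (Control) barcodes and between 21529542 and 32572995 UMIs. After the filter of over 200 and under 8000 genes and at most 10% mitochondrial UMIs, 5612, 5046 and 3412 cells remained in that order. Reference populations were set by the same genes: 12553 microglia-like cells and 146 BAM-like cells. Libraries shared 7 to 10 barcodes pairwise, and 0 of the shared barcodes were monocyte-like cells. Sums over the monocyte-like cells held 177539 UMIs for hCD33m, 112623 for hCD33M and 126278 for Control, against 75234101 for all microglia-like cells, so levels are given as CPM (UMIs per 1000000 UMIs of the sum).

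Monocyte-like cells made up 27 of 5612 cells in the hCD33m library (0.481%, 95% Clopper-Pearson interval 0.317 to 0.699), 15 of 5046 in the hCD33M library (0.297%, 0.166 to 0.490) and 15 of 3412 in the Control library (0.440%, 0.246 to 0.724). These intervals overlapped for every pair of genotypes. The cells were as deep as the cells around them, with a median of 6524 UMIs (range 3326 to 13921) and 2289 genes, where microglia-like cells had a median of 5293 UMIs and BAM-like cells 5930. Their mitochondrial share was between 0.129% and 6.01%. With F13a1 left out of the macrophage limit, an alternative chosen after seeing the data, the shares were 0.535% for hCD33m, 0.515% for hCD33M and 0.615% for Control.

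The limits of the rule mattered most for classical cells. In all, 121 cells held at least 5 UMIs of the 6 monocyte genes, of which the microglial limit alone left out 11, the macrophage limit alone 39, and both limits 14. Of the 39, 20 were over the macrophage limit through F13a1, which encodes coagulation factor XIII A and which classical monocytes also express, while their other 3 macrophage genes summed to under 5 UMIs. These 20 cells (3 in hCD33m, 11 in hCD33M and 6 in Control) had a median of 29 Plac8, 8 Ly6c2, 28 Ccr2 and 8 F13a1 UMIs, and 16 of them held Ly6c2. The other 19 held Ccr2 with a median of 6 UMIs of Mrc1, the mannose receptor of macrophages, and Plac8 in 2 cells. At the lower edge, 3 members held exactly 5 UMIs of the 6 genes and 2 cells, both in hCD33M, fell 1 UMI short. At the microglial limit, the members nearest to it held 0.144% and 0.126% of UMIs from P2ry12 and Tmem119, and both were Ccr2-only cells.

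The 4 genes that name the population were not carried by every member. Plac8, a small cysteine-rich protein of myeloid cells, had 2484, 3037 and 2463 CPM in the hCD33m, hCD33M and Control members, and was found in 34 of 57 cells at 0 to 87 UMIs (median 3). S100a4, a calcium-binding protein of motile cells, had 1403, 1865 and 1980 CPM and was found in 45 cells. Ly6c2 had 208, 444 and 507 CPM and was found in 18 cells, and Ear2 had 715, 355 and 174 CPM and was found in 30. So Ly6c2 was lowest and Ear2 highest in the hCD33m library. For Plac8 the share of cells with a UMI was 59.6% in members, against 13.7% in BAM-like and 0.781% in microglia-like cells, and 54.1%, 13.5% and 0.278% when each cell was thinned to 2000 UMIs. Of the 57 members, 10 held none of these 4 genes, and all 10 were Ccr2-only cells. The genes lie at chr5:100553725-100572245 (Plac8), chr15:75108158-75111970 (Ly6c2), chr3:90603771-90606045 (S100a4) and chr14:44102654-44103534 (Ear2) of mm10, by GENCODE vM21. Ly6c2 has a near-identical neighbour, Ly6c1, and Ear2 belongs to a family of similar ribonucleases, so their counts are uncertain to the extent that reads are shared.

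Placed by whether Ly6c2 and Ccr2 or Ace and Ear2 had more UMIs, the 44 remaining cells fell to both sides. The Ly6c2-Ccr2 set held 19 cells and the Ace-Ear2 set 25, with 0 ties and 3 cells within 2 UMIs of the cut. These sets are ranges along the values of 4 genes and not types. Only 5 cells held both Ly6c2 and Ear2. Ly6c2-Ccr2 cells were deeper, with a median of 10045 UMIs (6014 to 13921), than Ace-Ear2 cells, with 4919 (3326 to 10635), and Ccr2-only cells had 6598 (3871 to 11111).

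**Figure D1:**
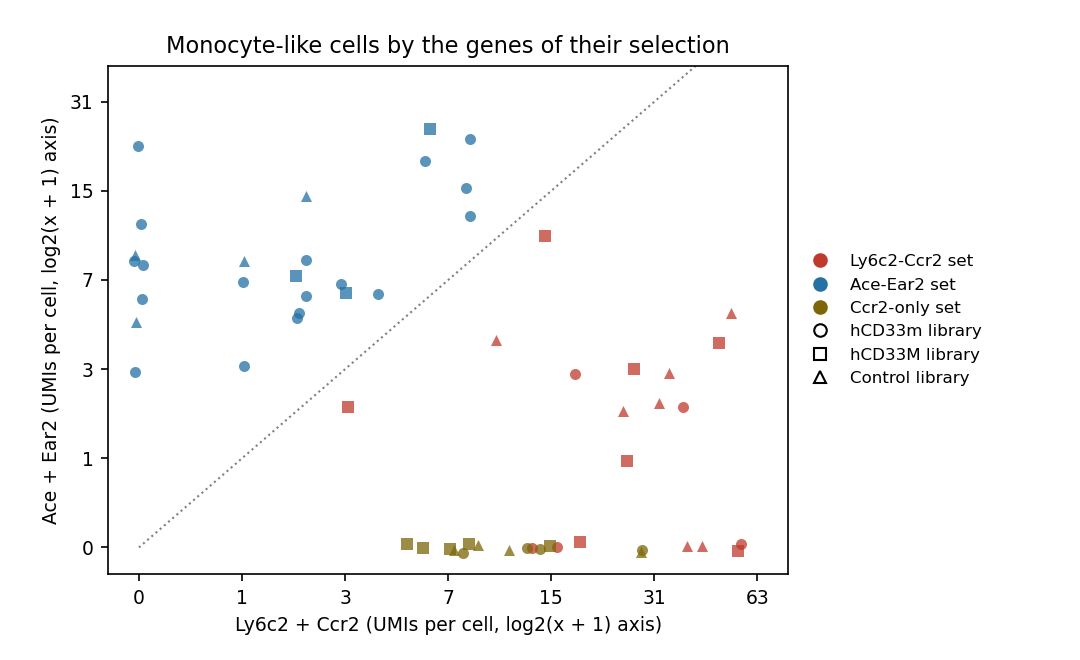
UMIs of Ace and Ear2 (vertical axis) against UMIs of Ly6c2 and Ccr2 (horizontal axis) in each of the 57 cells, both axes on a log2(UMIs + 1) scale with a small random shift to part overlapping points; colours stand for the 3 sets and marker shapes for the 3 libraries. The 25 Ace-Ear2 cells lie above the diagonal, the 19 Ly6c2-Ccr2 cells below it, and the 13 Ccr2-only cells at 0 UMIs of Ace and Ear2.

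Summed over the 3 libraries, genes that the placement did not use differed between the sets along the classical and patrolling lines. On the classical side, Fn1, which encodes the matrix protein fibronectin, had 625 CPM in Ly6c2-Ccr2 cells, 44.9 in Ace-Ear2 cells and 0 in Ccr2-only cells. Chil3 (Ym1), a secreted chitinase-like protein, had 393, 74.9 and 0 CPM in the same order. At least 1 UMI of Fn1 or Chil3 was in 18 of 19 Ly6c2-Ccr2 cells, 4 of 25 Ace-Ear2 cells and 0 of 13 Ccr2-only cells, at the depths given above. Ms4a4c, an interferon-inducible membrane protein, had 625, 89.8 and 179 CPM. Vim (vimentin) had 1668, 412 and 314 CPM, and S100a6, a calcium-binding protein, 2825, 771 and 493 CPM. The log2 ratio of Ace-Ear2 over Ly6c2-Ccr2 cells was -3.80 (95% counting interval -5.27 to -2.63) for Fn1, -2.39 (-3.51 to -1.43) for Chil3 and -2.02 (-2.46 to -1.60) for Vim. S100a10 and Anxa2, which form a membrane-bound complex, had 367 and 615 CPM in Ly6c2-Ccr2 cells and 22.5 and 277 CPM in Ace-Ear2 cells. In hCD33M, with 3 Ace-Ear2 cells, these sets were closer: Fn1 had 359 and 315 CPM, Vim 1393 and 1363, and S100a6 2785 and 2202. Chil3 stayed apart there, at 240 and 0 CPM. All 6 Fn1 UMIs of Ace-Ear2 cells came from 1 hCD33M cell.

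On the patrolling side, Nr4a1 had 329 CPM in Ace-Ear2 cells, 139 in Ly6c2-Ccr2 cells and 11.2 in Ccr2-only cells, a log2 ratio of 1.24 (0.52 to 1.99) for Ace-Ear2 over Ly6c2-Ccr2 cells. Treml4, a receptor that binds dying cells, had 337, 72.3 and 0 CPM, and Spn, a surface sialoglycoprotein, 412, 103 and 22.4 CPM. Differences were wider for Eno3, a glycolytic enolase (502, 25.8 and 11.2 CPM, log2 4.28, 2.99 to 5.95), for Cd300e, an activating receptor (240, 10.3 and 0 CPM, 4.54, 2.56 to 7.64), and for Fcgr4, the Fc receptor for IgG of patrolling monocytes (554, 36.2 and 33.6 CPM, 3.94, 2.82 to 5.30). Pglyrp1, a peptidoglycan recognition protein, had 966, 87.8 and 0 CPM, and Fabp4, a fatty acid carrier, 434, 56.8 and 0 CPM. In the Ly6c2-Ccr2 set 1 hCD33M cell held 11 of the 17 Pglyrp1 and 10 of the 11 Fabp4 UMIs. Within hCD33M, Treml4 had 105 CPM in Ace-Ear2 cells and 120 in Ly6c2-Ccr2 cells. The other patrolling genes given so far kept their direction there. At least 3 UMIs of Treml4, Spn, Eno3 and Adgre4 in sum were in 24 of 25 Ace-Ear2 cells, although these cells were the shallowest, in 9 of 19 Ly6c2-Ccr2 cells and in 0 of 13 Ccr2-only cells.

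Transcription factors and other genes were read in the same way, as ratios of Ace-Ear2 over Ly6c2-Ccr2 cells with their counting intervals. Cebpb, a C/EBP transcription factor that Ly6c-low monocytes need to survive, had 2987 CPM in Ace-Ear2 cells and 1188 in Ly6c2-Ccr2 cells (log2 1.33, 1.09 to 1.57), and Pou2f2 (Oct2) had 1325 and 537 CPM (1.30, 0.95 to 1.67). Bcl2a1d, an anti-apoptotic BCL2 relative with several near-identical copies, had 225 and 10.3 CPM. Cxcr4, the receptor for the bone marrow chemokine CXCL12, had 285 and 31.0 CPM. By contrast the interval included 0 for Hp, haptoglobin (509 and 486 CPM, log2 0.07, -0.40 to 0.53), for Cx3cr1 (562 and 527 CPM, 0.09, -0.36 to 0.54) and for Spi1, which encodes PU.1 (711 and 553 CPM, 0.36, -0.05 to 0.78). The pooled sums mix the libraries unequally, with 18 of the 25 Ace-Ear2 cells from hCD33m. Within each library Cx3cr1 was higher in Ace-Ear2 cells, at 430, 629 and 1071 CPM in hCD33m, hCD33M and Control. Ly6c2-Ccr2 cells had 335, 270 and 881 CPM in the same order. With 1 cell left out, Cx3cr1 ranged over 360 to 452, 459 to 1066 and 765 to 1312 CPM in Ace-Ear2 cells. In Ly6c2-Ccr2 cells it ranged over 222 to 424, 232 to 306 and 818 to 943 CPM. The ranges of the sets overlapped in hCD33m and Control, and 1 Control Ace-Ear2 cell held 11 of the 23 UMIs there. Cx3cr1 is the receptor on which the sort selected, so its level here was read within the gate.

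The Ccr2-only cells carried antigen presentation and complement transcripts. MHC class II genes load and present peptides to CD4+ T cells. Cd74, the invariant chain, ran between 16920 and 48437 CPM in the 13 Ccr2-only cells (median 34595), against 0 to 16306 in Ly6c2-Ccr2 cells (median 3819) and 0 to 3356 in Ace-Ear2 cells (median 831). The lowest Ccr2-only cell thus lay above the highest cell of both other sets. H2-Ab1 had 13777, 1818 and 82.4 CPM in the sums of the 3 sets in that order, and H2-Eb1 15861, 1054 and 52.4 CPM. C1qa, C1qb and C1qc, the chains of the first complement component that tissue macrophages make, summed to 9503 to 30483 CPM per Ccr2-only cell, against 0 to 613 per Ly6c2-Ccr2 cell and 0 to 1478 per Ace-Ear2 cell. In the Ccr2-only sum C1qa had 5623 CPM, against 6384 CPM in BAM-like cells and 10215 CPM in microglia-like cells. With BAM-like cells of at least 5 monocyte-gene UMIs left out, an alternative added after seeing the data, BAM-like cells had 8584 CPM.

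**Figure D2:**
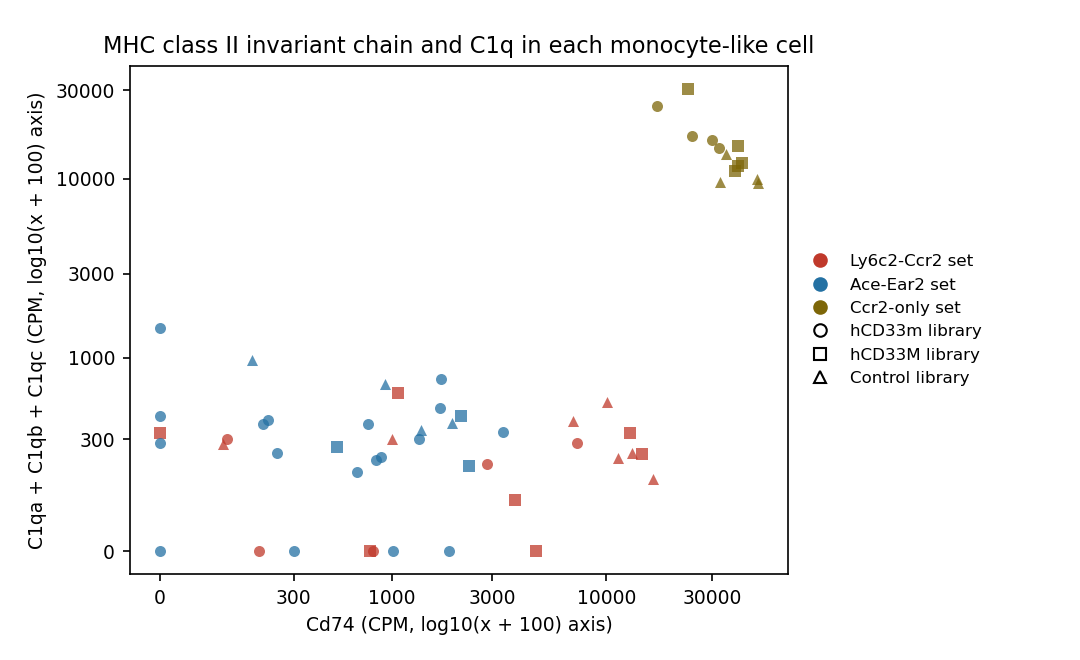
Cd74 CPM (horizontal axis) against the summed CPM of C1qa, C1qb and C1qc (vertical axis) in each of the 57 cells, both axes on a log10(CPM + 100) scale; colours stand for the 3 sets and marker shapes for the 3 libraries. The 13 Ccr2-only cells, at 16920 or more Cd74 CPM and 9503 or more C1q CPM, lie apart from the other 44 cells.

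Other macrophage and dendritic genes gave a mixed picture in the Ccr2-only cells. Among markers of border-associated macrophages, Cd163, Lyve1, Cbr2 and Folr2 had 0 UMIs in all 57 members, against 230 to 330 CPM in BAM-like cells. The paper also uses Mrc1, Ms4a7 and H2-Eb1 for these macrophages. H2-Eb1 went the other way, at 15861 CPM in Ccr2-only cells and 3439 in BAM-like cells. Mrc1 and Ms4a7 were capped by the rule. Within that cap Mrc1 was found in 8 of 13 Ccr2-only cells, at no more than 3 UMIs, and Ms4a7 in 3. Whether the Ccr2-only cells were border-associated macrophages was not tested. The endocytic adaptor Dab2 had 213 CPM in Ccr2-only cells and 0 in both other sets. BAM-like cells had 963 CPM, and 1440 once those with at least 5 monocyte-gene UMIs were left out. The microglia list summed to 7292 CPM in Ccr2-only cells, against 7677 in BAM-like and 42551 in microglia-like cells. Trem2, a lipid receptor of macrophages, had 851 CPM in Ccr2-only cells, against 776 in BAM-like and 2828 in microglia-like cells. With the same BAM-like cells left out, the BAM-like level of Trem2 was 981 CPM. The 14 genes of that list outside the rule took 0.265% to 2.23% of UMIs in Ccr2-only cells, 0.0771% to 0.332% in Ly6c2-Ccr2 cells and 0.123% to 0.472% in Ace-Ear2 cells. The 2.23% belonged to a single hCD33m cell, the member at 0.144% of P2ry12 and Tmem119, and the next cell held 0.765%. Cd209a, a lectin of monocyte-derived dendritic cells, had 26 UMIs in 1 Control Ccr2-only cell and 9 UMIs in 3 Ly6c2-Ccr2 cells. Of those 9, 6 were in 1 hCD33M cell, which held 12 UMIs of the conventional dendritic list. Zbtb46, Xcr1 and Clec9a, also markers of conventional dendritic cells, had 0 UMIs in all members. Of the 8 measured genes of the conventional dendritic list, 4 had 0 UMIs.

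The sets were unequally spread over the libraries. Ace-Ear2 cells were 18 of 27 members in hCD33m (66.7%, 46.0 to 83.5), 3 of 15 in hCD33M (interval 4.33 to 48.1%) and 4 of 15 in Control (26.7%, 7.79 to 55.1). Ly6c2-Ccr2 cells were 5, 7 and 7 in that order, and Ccr2-only cells 4, 5 and 4. The hCD33m mice were also the female ones, and without that library Ace-Ear2 cells were 7 of 30 members (23.3%, against 43.9% over all 57). With F13a1 left out of the macrophage limit the members were 30, 26 and 21, the Ly6c2-Ccr2 cells 7, 17 and 13, and the Ace-Ear2 cells stayed at 18, 3 and 4.

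**Figure D3:**
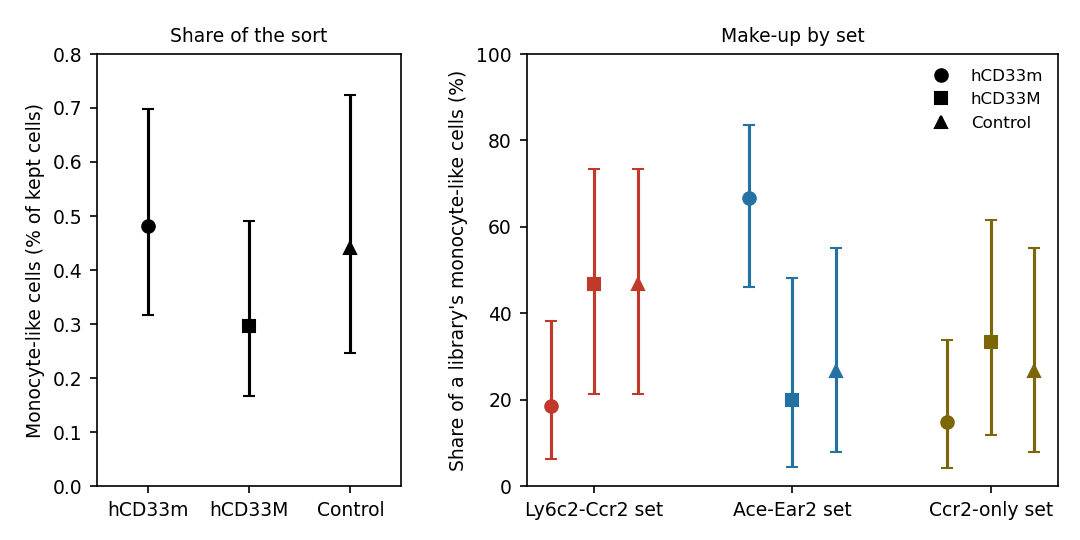
Left, percent of kept cells that were monocyte-like in each library; right, percent of the monocyte-like cells in each set; bars are 95% Clopper-Pearson intervals of the counts in hCD33m, hCD33M and Control. Intervals of the shares of the sort overlap at 0.481%, 0.297% and 0.440%, and Ace-Ear2 cells make up 66.7% of the members in hCD33m and 26.7% in Control.

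Monocyte-like and microglia-like cells differed at least 4-fold in many genes. Of 3169 genes outside the rule with enough UMIs, 247 (7.79%) were at least 4-fold higher in all 3 libraries, and of 3768 genes 203 (5.39%) were at least 4-fold lower. Since the rule used this contrast, these shares describe the selection. Napsa, an aspartic protease, had 648, 506 and 578 CPM in hCD33m, hCD33M and Control members, against 3 UMIs in 75234101 of the microglia-like cells. Ifitm6, an interferon-induced membrane protein, had 473, 746 and 570 CPM and 6 UMIs. Itgal, the αL chain of the integrin LFA-1 by which leukocytes hold on to endothelium, had 377, 240 and 396 CPM, against 0.146 CPM. Cybb, the catalytic subunit of the phagocyte NADPH oxidase, had 2073, 1749 and 1513 CPM, against 2.42 CPM, and Adgre5 (CD97), an adhesion receptor, 315, 391 and 396 CPM, against 0.186 CPM. All 57 cells held UMIs of Lyz2, lysozyme, at 20 to 519 UMIs (22615, 16400 and 26956 CPM), against 364 CPM.

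By role, most monocyte genes with enough UMIs were higher than in microglia-like cells. Of 20 general monocyte genes outside the rule, 17 were at least 4-fold higher in all 3 libraries (median log2 ratio 4.73, where the median of 4389 genes was -0.31). Over all 3169 genes with enough UMIs the share was 7.79%. Of 12 Ly6c-high genes 8 had enough UMIs and 7 of them were higher (median 10.82), and of 18 Ly6c-low genes 15 had enough and 12 were higher (8.25). Fcgr1, the high-affinity IgG receptor, was the Ly6c-high gene that was not, at 187 CPM against 440 in microglia-like cells. Of 17 S100, annexin and cytoskeletal genes 13 were higher (4.18), Anxa1 and Vim among them. Lists chosen for these cells are no independent support for the name. With the Ccr2-only cells left out, which was added after seeing the data, 245 genes were higher and 197 lower.

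Trafficking receptors differed in direction. Itga4, the α4 integrin chain that binds VCAM-1 on endothelium, had 518, 444 and 412 CPM in hCD33m, hCD33M and Control members, against 0.891 CPM in microglia-like cells. Its partner Itgb7 had 84.5, 178 and 119 CPM, against 0.372, and Cd44, a hyaluronan receptor, 203, 240 and 285 CPM, against 1.01. Cx3cr1, the fractalkine receptor, was lower at 608, 426 and 982 CPM, against 3170, 3368 and 5711 CPM in microglia-like cells of the same libraries. Selplg, the ligand of P-selectin, had 445, 355 and 317 CPM, against 3325 in microglia-like cells. Of 16 trafficking genes outside the rule 12 had enough UMIs to be called higher and 6 of them were, where 7.79% of all genes were. For the lower call 6 had enough and 3 of them were lower, where 5.39% of all genes were.

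Genes of microglial identity were low in the sums over members, which were chosen for low P2ry12 and Tmem119. Of 14 microglia genes outside the rule 13 were at least 4-fold lower in all 3 libraries (median log2 ratio -4.62), where 5.39% of all genes were. Sall1, a transcription factor of microglia, had 16.9, 8.88 and 15.8 CPM in hCD33m, hCD33M and Control members, against 435 CPM in microglia-like cells. Siglech, a sialic acid receptor, had 62.0, 53.3 and 63.4 CPM, against 2124, and Gpr34, a lysophospholipid receptor, 124, 53.3 and 79.2 CPM, against 2217. Ccr2-only cells held 21 of the 25 Siglech UMIs and 31 of the 38 Gpr34 UMIs. Gpr34 had 347 CPM in their sum, 20.7 in the Ly6c2-Ccr2 sum and 22.5 in the Ace-Ear2 sum. Csf1r, the growth factor receptor that monocytes also need, was the exception at 1053, 737 and 689 CPM, against 3718. Mouse Cd33 had 56.3, 88.8 and 71.3 CPM, against 473, with 246 CPM in the Ccr2-only sum, 20.7 in the Ly6c2-Ccr2 sum and 22.5 in the Ace-Ear2 sum. Reads of the human transgenes were not analysed here.

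Interferon-induced genes were higher in members as well. Of 17 such genes 11 had enough UMIs and 8 were at least 4-fold higher in all 3 libraries than in microglia-like cells (median log2 4.71), where 7.79% of all genes were. Ifi27l2a, a mitochondrial interferon-induced protein, had 1915, 2317 and 1576 CPM in hCD33m, hCD33M and Control members, against 38.3 CPM. Irf7, the transcription factor that amplifies type I interferon, had 95.8, 107 and 135 CPM, against 4.23. The genes most tied to an acute response were low: Ifit1, Ifit2 and Rsad2 had 5, 1 and 1 UMIs in all members. Isg15, a ubiquitin-like protein, had 176 CPM in Ly6c2-Ccr2 cells, 0 in Ace-Ear2 cells and 56.0 in Ccr2-only cells. Of 7 MHC class II genes 5 were higher (median 8.16), where 7.79% of all genes were. Without the Ccr2-only cells that median was 6.82.

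**Figure D4:**
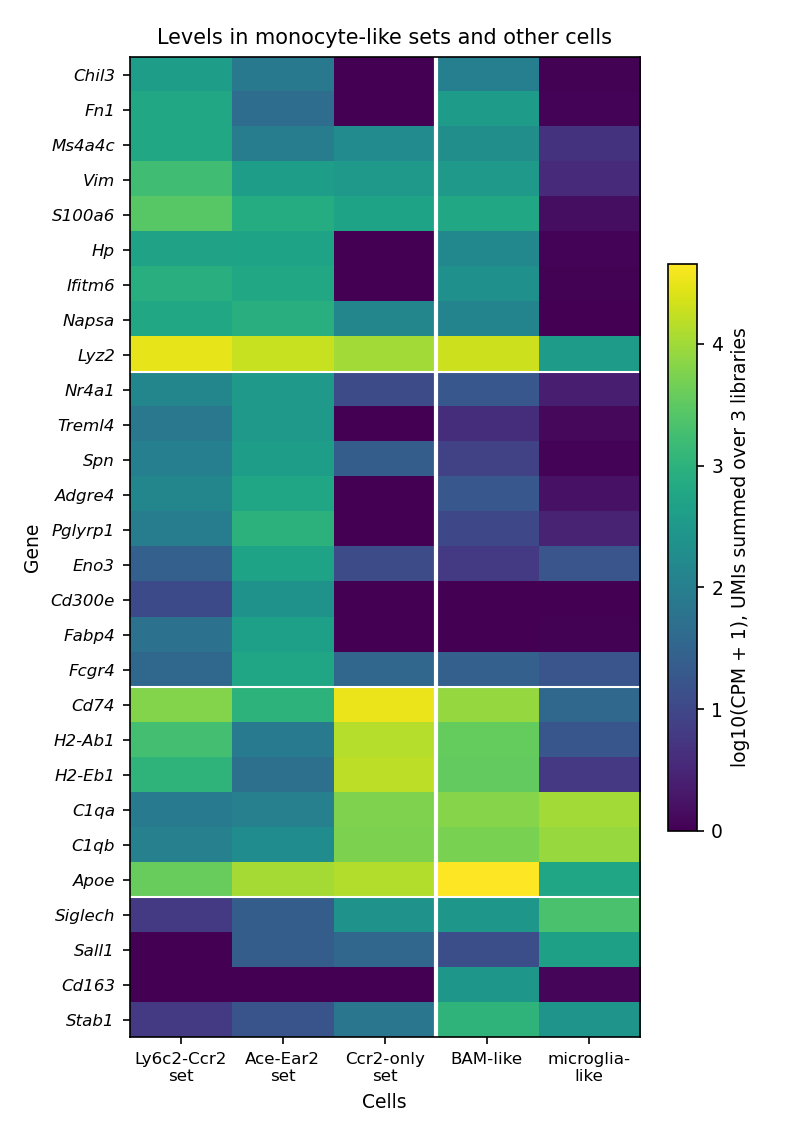
Heat map of log10(CPM + 1) for 28 genes (rows) in the sums of Ly6c2-Ccr2, Ace-Ear2 and Ccr2-only cells, BAM-like cells and microglia-like cells (columns). Classical genes such as Fn1 (625 CPM) are highest in the Ly6c2-Ccr2 column, patrolling genes such as Eno3 (502 CPM) in the Ace-Ear2 column, and H2-Eb1 (15861 CPM) in the Ccr2-only column.

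Genes higher than in BAM-like cells included part of the patrolling list. Of 3169 genes outside the rule 23 (0.726%) were at least 4-fold higher in all 3 libraries, and of 3051 genes 33 (1.08%) were at least 4-fold lower. The Ly6c-low list gave 8 of the 23: Nr4a1, Treml4, Spn, Eno3, Adgre4, Cd300e, Pglyrp1 and Fabp4. Spn had 242, 142 and 143 CPM in hCD33m, hCD33M and Control members, against 7.10 CPM in BAM-like cells, and Pglyrp1 484, 204 and 293 CPM, against 9.13. S1pr5, a sphingosine-1-phosphate receptor by which patrolling monocytes leave bone marrow, had 130, 53.3 and 103 CPM, against 1.01. Of 8 Ly6c-high genes 0 were higher, which is near the 0.726% of all genes and is not read as a result about them. Fn1 had 305 CPM in members and 358 in BAM-like cells, which included the 20 cells over the macrophage limit through F13a1. In 20 of 146 BAM-like cells Plac8 was found (2 in hCD33m, 12 in hCD33M and 6 in Control), and with BAM-like cells of at least 5 monocyte-gene UMIs left out, an alternative added after seeing the data, 87 genes were higher and 62 lower. In those remaining BAM-like cells Fn1, Chil3 and Hp all had 0 UMIs. Without the hCD33M library 46 genes were higher.

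Genes at least 4-fold lower than in BAM-like cells included Stab1, Gas6, Maf and Apoe. Stab1, a scavenger receptor, had 22.5, 35.5 and 7.92 CPM in hCD33m, hCD33M and Control members, against 1051 CPM in BAM-like cells. Gas6, the bridge between dying cells and TAM receptors, had 5.63, 0 and 15.8 CPM, against 506, and Maf, a macrophage transcription factor, 130, 133 and 87.1 CPM, against 1453. Apoe, the carrier of lipids between cells, had 12572, 4129 and 5179 CPM, against 45646 in BAM-like and 545 in microglia-like cells. Lyz2 had 22251 CPM in members and 20109 in all BAM-like cells, and 11126 in BAM-like cells once those with at least 5 monocyte-gene UMIs were left out.

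Marker lists of other cell types were at different levels in the members. The neutrophil list summed to 11.3, 8.88 and 7.92 CPM in hCD33m, hCD33M and Control, with S100a9 and Cxcr2 at 0 UMIs. The list for NK and T cells summed to 16.9, 62.2 and 87.1 CPM with Ccl5, Prf1 and Klrb1c at 0. At least 3 of its UMIs were in 2 members, both Ly6c2-Ccr2 cells, with 8 in 1 Control cell and 5 in 1 hCD33M cell. The plasmacytoid dendritic list summed to 0. The conventional dendritic list summed to 78.9, 284 and 269 CPM, against 515 in BAM-like and 57.3 in microglia-like cells, and 7 members held at least 3 of its UMIs. Ighm had 351 CPM in members and 334 in microglia-like cells, and with Ighm not counted only 1 of the 28 cells with at least 3 UMIs of the B cell list was left. Mbp, a myelin gene and the 1 neuron and glia gene with enough UMIs, was at least 4-fold higher than in microglia-like cells in all 3 libraries. It had 127 CPM in members, 27.0 in microglia-like and 37.5 in BAM-like cells, and its part in the other values was not tested. Proliferation genes were scarce, with 1 UMI each of Mki67 and Top2a in all 57 cells.

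Between genotypes, sums over all members differed for genes that also differed between the sets. H2-Aa had 1994 CPM in hCD33m, 4688 in hCD33M and 5274 in Control members, Vim 406, 1066 and 1695 CPM, and Fn1 152, 266 and 554 CPM. These are genes of the Ccr2-only and Ly6c2-Ccr2 sets, which together made up a smaller share of the members in hCD33m. The part of the set shares in these values was not tested. Cxcr4, a gene of the Ace-Ear2 set, had 203, 44.4 and 23.8 CPM. Of the 5 highest ratios of hCD33m over Control, Fcrls (203 and 23.8 CPM) and Ctsd (924 and 158 CPM) are also microglial genes. In Ccr2-only cells Ctsd, a lysosomal protease, had 3439 CPM in hCD33m, 112 in hCD33M and 69.5 in Control, and 105 of the 116 UMIs in hCD33m came from the cell at 2.23% of the microglia list. Without that cell Ctsd had 486 CPM in the hCD33m set and 355 CPM in all hCD33m members, and Fcrls 90.1 CPM in all hCD33m members. Between hCD33M and Control the lowest ratio was that of Lyz1, a lysozyme gene, with 2 and 30 UMIs, and all 30 in Control came from 1 Ccr2-only cell.

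Within sets, single genes also differed beyond counting error, and each cell was left out in turn, an alternative added after seeing the data. Vim had 650, 1393 and 2591 CPM in Ly6c2-Ccr2 cells of hCD33m, hCD33M and Control. With 1 cell left out these levels were 580 to 715, 901 to 1552 and 2195 to 2897 CPM, and these ranges of the sums did not overlap. Single cells did overlap, with 4 to 10 Vim UMIs per cell in hCD33m, 0 to 43 in hCD33M and 7 to 60 in Control. Cd74 had 2323, 6604 and 8839 CPM in the same cells, a log2 ratio of -1.93 (-2.22 to -1.64) for hCD33m over Control and -0.42 (-0.60 to -0.25) for hCD33M over Control. With 1 cell left out Cd74 had 973 to 2927, 4701 to 7511 and 7165 to 10285 CPM, so the ranges of hCD33M and Control overlapped. H2-Aa had 433, 1902 and 2446 CPM in Ly6c2-Ccr2 cells, where 21 of the 22 UMIs in hCD33m came from 1 cell, and 9607, 14756 and 16642 CPM in Ccr2-only cells. Apoe had 12491, 4561 and 7732 CPM in Ace-Ear2 cells, with log2 ratios over Control of 0.69 (0.46 to 0.94) for hCD33m and -0.76 (-1.15 to -0.38) for hCD33M. The hCD33M value rested on 1 of 3 cells, without which the level was 9716 CPM, above that of Control, and the median cell had 8857 CPM in hCD33M and 7945 in Control. These sums rest on 3 to 18 cells of 1 library each. Neither the counting intervals nor the ranges with 1 cell left out hold the spread between cells or animals.

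Cx3cr1, the locus that carries the Cre, was lower in the members of both transgenic libraries. It had 608 CPM in hCD33m, 426 in hCD33M and 982 in Control members, log2 ratios over Control of -0.69 (-1.08 to -0.31) for hCD33m and -1.20 (-1.72 to -0.71) for hCD33M. In Ly6c2-Ccr2 cells the levels were 335, 270 and 881 CPM, and in Ace-Ear2 cells 430, 629 and 1071 CPM. Microglia-like cells gave ratios of -0.85 and -0.76, in the same direction. In Ccr2-only cells the levels were 1512, 672 and 1181 CPM, and 34 of the 51 UMIs in hCD33m came from the cell at 2.23% of the microglia list. Without that cell the hCD33m level was 752 CPM in Ccr2-only cells and 445 CPM in all its members. Sex-linked genes followed the labels, with 176, 0 and 0 UMIs of Xist and 0, 6 and 9 UMIs of Ddx3y in hCD33m, hCD33M and Control members.

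The study's early response genes, which cells switch on within minutes of stimulation, were read in the members because the same genes are followed in microglia. Their 9 members summed to 3284 CPM in hCD33m, 2486 in hCD33M and 2344 in Control. Their median log2 ratio of hCD33m over Control was 0.75, with 7 of 9 above 0, where the median of 2405 genes was 0.09. That of hCD33M over Control was 0.11, with 6 of 9 above 0, where the median of 1796 genes was 0.03. When each cell was thinned to 2000 UMIs, the hCD33m median was -0.15, with each cell given the same weight and the 27 and 15 cells still summed. The study drew the list from microglia of another of its experiments.

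The values behind that median were uneven. Btg1, an anti-proliferative gene, had 1127, 630 and 586 CPM in hCD33m, hCD33M and Control members, a log2 ratio of 0.94 (0.55 to 1.35) for hCD33m over Control. It was itself a gene of the Ace-Ear2 set (1318 CPM, against 630 in Ly6c2-Ccr2 cells), and within Ace-Ear2 cells the ratio was 0.90 (0.19 to 1.70). Rhob, a small GTPase, had 163, 107 and 55.4 CPM (1.56, 0.34 to 2.99) from 29, 12 and 7 UMIs. Klf2, a transcription factor of quiescent cells, had 569, 577 and 673 CPM, a ratio of -0.24 (-0.67 to 0.19), where microglia-like cells had 1.14 (1.01 to 1.27). The interval for Fos, an AP-1 subunit, held 0 (293, 222 and 214 CPM, 0.45, -0.24 to 1.18), where microglia-like cells had 1.28 (1.20 to 1.36). Whether the genotype difference itself differed between cell populations was not tested.

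**Figure D5:**
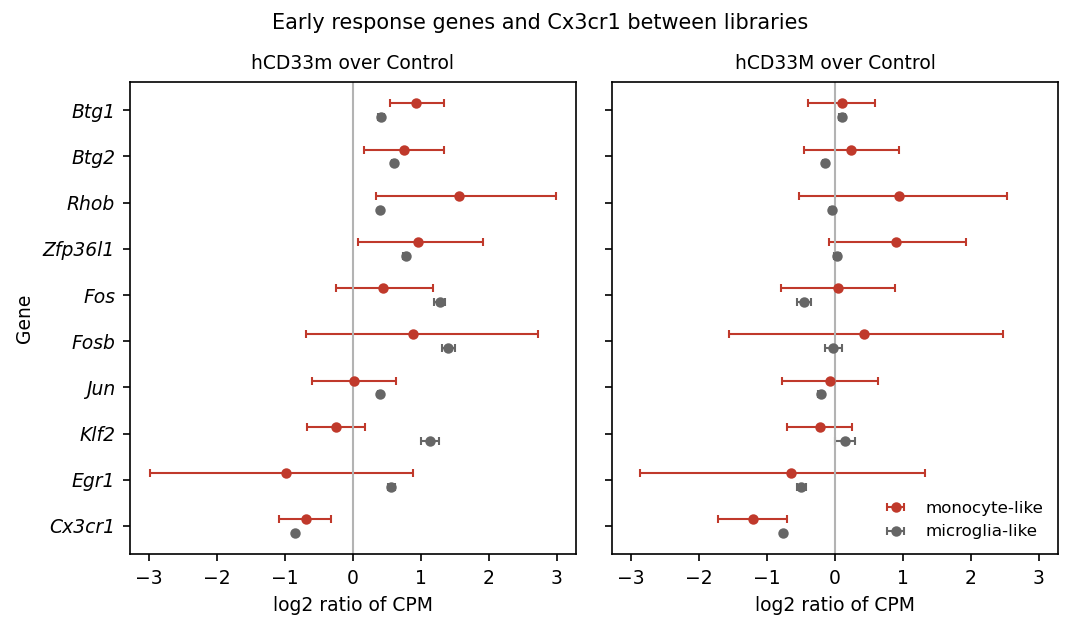
Log2 ratios of CPM for the 9 early response genes and Cx3cr1 in monocyte-like and microglia-like cells, with hCD33m over Control and hCD33M over Control in separate panels; bars are 95% counting intervals. Bars are wide in monocyte-like cells, as for Fos at -0.24 to 1.18 for hCD33m, and Cx3cr1 lies below 0 in both kinds of cells and both panels.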

How the data were processed

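Reads from the 10x Chromium 3' platform were aligned by the authors with Cell Ranger, and Seurat was used on the output; mm10 is named in the submitters' processing notes. What was deposited are raw UMI counts per gene and barcode, not normalized, for 1 library per genotype. Here cells with over 200 and under 8000 genes and at most 10% mitochondrial UMIs were kept, no doublets were removed, and members were taken by the rule given in the report. The members and gene lists were chosen with earlier results of these data known.

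Microglia-like cells had at least 0.15% of UMIs from P2ry12 and Tmem119, at least 1000 genes, and under 5 UMIs of both the monocyte and macrophage genes. BAM-like cells had at least 5 UMIs of the macrophage genes and under 0.15% of P2ry12 and Tmem119. UMIs were summed per library and population and scaled to CPM. A gene counted as higher with at least 20 member UMIs, and as lower with an expected 20, if it differed at least 4-fold in all 3 libraries. For these ratios, counts under 3 in the population with the lower level were set to 3. Depth limits the precision: shares carry exact Clopper-Pearson intervals and ratios exact conditional Poisson intervals (95%), both for counting error only. No statistical test was run. The sets were taken from UMIs of Ly6c2, Ccr2, Ace and Ear2, and the Ccr2-only set was defined after its values were seen.

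Named genes were list members, the 25 highest and 15 lowest genes against each population by the smallest of the 3 library ratios, and the 5 highest and 5 lowest ratios between genotypes with at least 30 UMIs; Bcl2a1d, Ctsd within sets and Lyz1 by cell were described after their values were seen. The lists covered general, Ly6c-high and Ly6c-low monocyte, microglial, BAM and other cell type markers, trafficking, transcription factors, cytoskeleton, MHC class II, Fc receptor, complement, early response, interferon, inflammatory, Siglec, survival, lipid, cell cycle, glucocorticoid and sex-linked genes. Of genes with enough UMIs, 0 of 7 survival genes and 0 of 1 cell cycle gene differed at least 4-fold from microglia-like cells in all 3 libraries, 1 of 6 Fc receptor genes (Fcgr4) was higher, and of 12 lipid and lysosomal genes 1 was higher and 5 lower, where 7.79% and 5.39% of all genes were. Alternatives were other minimums and limits, a stricter cell filter, thinning each cell to 2000 UMIs, scaling by TMM in edgeR 4.0.16 or by median ratios in DESeq2 1.42.0 (both under R 4.3.3), members with other cell types' UMIs or most UMIs left out, each library left out, and each cell left out for single genes within sets. Python 3.11.15, numpy 2.4.6, scipy 1.17.1, pandas 2.3.3 and matplotlib 3.10.9 were used. Calls were tested on simulated data. Gene positions came from GENCODE vM21 and promoters from RefSeq GRCm38.p6. Some genes of the lists are not reported here.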

Additional observations from a re-analysis of the deposited data

How the results depend on the processing

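With 1 library per genotype no spread between animals can be had, the sums behind single values hold 3 to 27 cells of a library, and depth limits every gene under about 20 UMIs. Of 213 values from alternatives, 154 stayed close to the reported ones. No paired analysis was possible because each genotype has 1 library and no result comes from a test. The median log2 ratio of the early response list for hCD33m over Control was 0.75, and -0.15 when each cell was thinned to 2000 UMIs.

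Leaving out members with at least 3 UMIs of another cell type's list, most of them cells with Ighm, gave shares of 0.214% in hCD33m, 0.119% in hCD33M and 0.205% in Control, 127 genes higher and 53 lower than in microglia-like cells, 9 lower than in BAM-like cells, and list medians of 11.23 (Ly6c-high), -2.35 (complement) and -4.39 (microglia). With Ighm not counted, an alternative added after seeing the data, 135 genes were lower, and the medians were 7.74 (MHC class II) and -4.52 (microglia). Thinning to 2000 UMIs gave 102 genes higher and 64 lower than in microglia-like cells, 10 lower than in BAM-like cells and a microglia median of -3.99, with fewer UMIs per gene. With no minimum of UMIs, 401 genes were higher, and the medians were 10.07 (Ly6c-high) and -2.57 (complement).

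A minimum of 3 monocyte-gene UMIs gave -2.43 (complement) and -4.51 (microglia), and a minimum of 10 gave 7.86 (MHC class II) and -2.96 (complement). A microglial limit of 0.05% gave 7.81, -3.12 and -5.18 for MHC class II, complement and microglia, and a limit of 0.30% gave 8.45, -2.54 and -3.69 and 45 genes higher than in BAM-like cells. Without the 5% of members with most UMIs the microglia median was -4.56. TMM factors gave -4.48, and median-of-ratios factors -4.38 (microglia) and -2.49 (complement). Requiring 1000 genes and no more than 5% mitochondrial UMIs gave 14 genes higher and 20 lower than in BAM-like cells.

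Among alternatives added after seeing the data, leaving F13a1 out of the macrophage limit gave a share of 0.515% in hCD33M, 79 genes higher and 82 lower than in BAM-like cells, and medians of 7.68 (Ly6c-low), -2.97 (complement) and -4.76 (microglia). Leaving out Ccr2-only cells gave 39 genes higher and 50 lower than in BAM-like cells, and medians of 11.51 (Ly6c-high), 6.82 (MHC class II), -3.59 (complement) and -5.31 (microglia). Leaving out BAM-like cells with 5 UMIs of the monocyte genes gave 87 higher and 62 lower.

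Without each library in turn, 17 to 46 genes were higher than in BAM-like cells (46 without hCD33M), the share of Ace-Ear2 cells was 23.3% to 52.4% (23.3% without hCD33m), and the medians were 10.42 to 11.13 (Ly6c-high) and -5.01 to -4.40 (microglia). The causes of these differences were not tested.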

Other observations

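Other gene groups were also read in the members. Il1b, the inflammatory cytokine interleukin-1β, had 195 CPM in Ace-Ear2 cells, 31.0 in Ly6c2-Ccr2 cells and 11.2 in Ccr2-only cells, and 146, 35.5 and 23.8 CPM in hCD33m, hCD33M and Control members. Within Ace-Ear2 cells it had 258, 52.4 and 46.6 CPM, from 24, 1 and 1 UMIs. Other inflammatory genes were sparse, with 5 UMIs of Tnf and 0 of Il6 and Il1rn in all 57 cells. C3, the central complement protein, had 160 CPM in Ly6c2-Ccr2 cells, 112 in Ace-Ear2 cells and 0 in Ccr2-only cells, opposite to the C1q chains, against 0.904 CPM in microglia-like cells. Lpl, lipoprotein lipase, had 196, 22.5 and 56.0 CPM in the Ly6c2-Ccr2, Ace-Ear2 and Ccr2-only sums.

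Tsc22d3 and Ddit4, which glucocorticoids induce, were higher in hCD33m members than in Control members, as they were in microglia-like cells. Tsc22d3 (GILZ) had 270, 97.7 and 143 CPM in hCD33m, hCD33M and Control members, a log2 ratio of 0.92 (0.12 to 1.79) for hCD33m over Control, where microglia-like cells had 1.89 (1.77 to 2.02). Ddit4, a stress-induced inhibitor of mTORC1, had 124, 17.8 and 39.6 CPM (1.65, 0.21 to 3.40), where microglia-like cells had 3.10 (2.88 to 3.33). Within Ace-Ear2 cells the ratio of Tsc22d3 was 0.97 (-0.52 to 2.93) and within Ly6c2-Ccr2 cells 1.04 (-0.41 to 2.56), both with intervals that held 0.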
